A study of Mus musculus with 8 samples.

Results

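The mouse Hox genes of the Hoxa, Hoxb, Hoxc and Hoxd clusters were followed through neural differentiation of embryonic stem cells, both in total RNA and in the RNA that was recovered with Argonaute (Ago) proteins. The members were all non-control probes whose gene name was Hoxa, Hoxb, Hoxc or Hoxd followed by a number. This rule gave 43 probes for 39 genes, out of 55681 probes for 36163 gene names on the array. The Hoxa cluster had 11 genes, the Hoxb cluster 10, and the Hoxc and Hoxd clusters 9 each.

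Hox genes encode homeodomain transcription factors that give cells their position along the head-to-tail axis. In each cluster the genes lie in the order in which they are used: genes of low paralogue number are active early and reach forward into the hindbrain, while genes of high number are active later and further back in the spinal cord and tail. Forebrain and midbrain normally express none of them, and in embryonic stem cells the clusters are held silent by Polycomb proteins. The clusters also encode microRNAs, among them miR-10 and miR-196, which as guides of Ago proteins can repress Hox transcripts.

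The cells were E14Tg2A, an embryonic stem cell line of strain 129/Ola, untreated apart from the differentiation protocol. They were sampled as ES cells grown in serum with LIF (0 days of in vitro differentiation, ES), after 2 days as floating aggregates in defined medium with N2 and B27 lacking vitamin A (ELA), at day 6 after adherent culture on poly-ornithine and laminin (NPC), and at day 10 after further culture without B27 (NPC/Neu). At each stage 1 Agilent array was hybridised with total RNA and 1 with RNA that came down with a pan-Ago antibody from the cytosolic fraction (Ago-RNA), 8 arrays in all, each loaded with RNA pooled from 3 experiments. No condition had a second array and none of the 8 was a control immunoprecipitation. No test between conditions was therefore possible, and a difference between stages cannot be told apart from a difference between single arrays.

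Values are log2 normalised signals, and a gene was called detected where at least 1 of its probes was well above background by the scanner software. The lowest signal that was well above background lay between 6.73 and 7.02 on the 8 arrays, so values near 7 are at the limit of the measurement. The only error available was that between spots of 1 array, from 399 probes printed in 10 spots. The SD of a log2 difference between 2 arrays was 0.172 to 0.216 for such probes with mean log2 signal below 8 and 0.0716 to 0.0755 for those at 10 and above. A gene was said to have risen or fallen where its log2 signal differed by at least 1, which is a threshold of size and not a test. The ES Ago-RNA array was the brightest, with an upper quartile of mean intensity of 3039 against 1060 to 1774 on the others.

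The microRNAs of the clusters are shown first, because they connect the Hox genes with Ago, the protein whose RNA was measured. Mature microRNAs were not measured on these arrays. The sequences are from RefSeq (GRCm38.p6), written 5′ to 3′, with the seed (bases 2 to 8) in capitals. The upper pair share a seed, and so do the lower pair:
mmu-miR-10a-5p (Hoxb cluster, chr11:96317186-96317208, + strand): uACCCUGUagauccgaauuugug
mmu-miR-10b-5p (Hoxd cluster, chr2:74726074-74726096, + strand): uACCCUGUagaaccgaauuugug
mmu-miR-196a-5p (Hoxb cluster, chr11:96265187-96265208, + strand, and a second copy in the Hoxc cluster): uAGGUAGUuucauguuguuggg
mmu-miR-196b-5p (Hoxa cluster, chr6:52230129-52230150, - strand): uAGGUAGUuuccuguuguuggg

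One Hox transcript stood apart in its complementarity to these microRNAs. When the full complement of miR-196a-5p was slid without gaps along the longest annotated 3′ UTR of each of 19768 genes, the best match had a median of 12 identical bases of 22. Hoxb8 reached 21 of 22 and was the only gene at that number. The complement and the Hoxb8 sequence are shown because this gene also had the highest ratio of Ago-RNA to total RNA among the Hox genes compared with outlier spots left out (below). Whether the match had a part in that ratio was not tested. Capitals in the complement mark the bases opposite the seed, and the capital in the Hoxb8 sequence marks the 1 base that differs, A18G, counted from the 5′ end:
complement of miR-196a-5p: cccaacaacatgaaACTACCTa
Hoxb8 3′ UTR, mm9 chr11:96146202-96146223, + strand: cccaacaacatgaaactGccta

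For miR-196b-5p the same stretch of Hoxb8 was again the best of all 3′ UTRs searched, with 20 of 22 bases identical. The Hoxb8 probe of the array lay 352 bases 3′ of it. No Hox gene was among the best matches of miR-10a-5p or miR-10b-5p, for which the maximum was 18 of 23 bases.

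Of the 43 probes, 30 lay in the 3′ UTR of their gene, 9 in the coding sequence and 2 across both in the mm9 annotation. The other 2, the only Hoxb1 probe and 1 of the 2 Hoxb3 probes, were not placed in a coding transcript of their gene. Some Hox probes were not specific to 1 gene. The other Hoxb3 probe, in the coding sequence, matched 57 of its 60 bases in Hoxd3. The only Hoxb8 probe lay, with all 60 bases, also in a transcript that the annotation assigns to Hoxb7.

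Few Hox genes were detected before neural induction and more from day 6 on. In total RNA 9 of the 39 genes were detected in ES and 6 in ELA, and then 20 in NPC and 18 in NPC/Neu. The background, the share of all gene names detected on the same arrays in the same order, was 65.6%, 60.6%, 65.5% and 64.3%, so the share of Hox genes was below it throughout. The counts depend on the flag: by the weaker flag of the scanner software 25, 16, 29 and 27 Hox genes were detected in total RNA. On Ago the counts were 14, 7, 19 and 21, against 66.7%, 59.5%, 60.6% and 61% of all gene names. The 14 genes in ES Ago-RNA lay on the brightest array, and their log2 signals were between 6.73 and 8.41. Whether the brightness of that array played a part in the count was not tested. Since these are bulk samples, more cells that express a gene and more RNA per cell cannot be told apart.

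**Figure D1:**
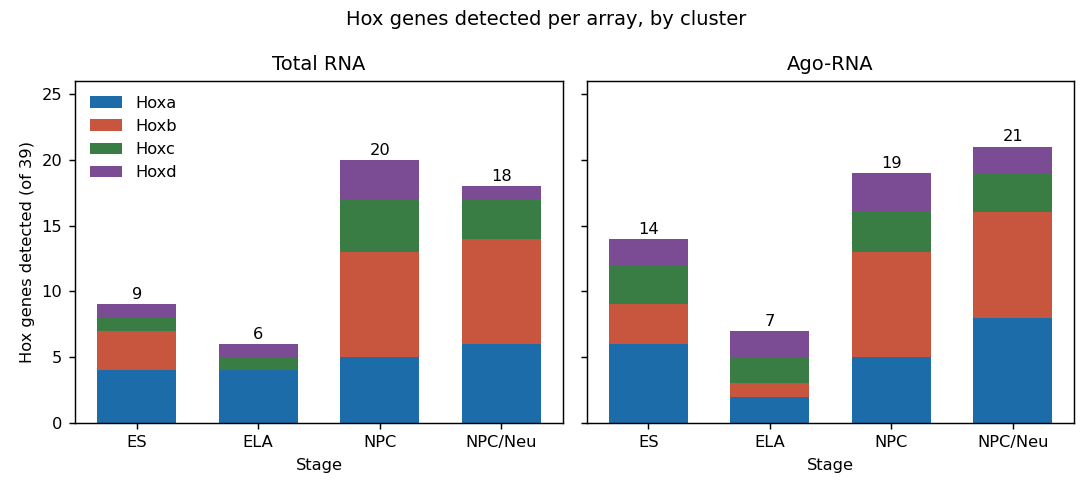
Number of Hox genes detected on each array (vertical axis, of 39) at the 4 stages (horizontal axis), in total RNA on the left and Ago-RNA on the right, with bars split by cluster. The counts are 6 and 7 in ELA and 18 to 21 in NPC and NPC/Neu.

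The step from ELA to NPC was the one at which Hox genes appeared. In total RNA 16 of the 33 genes that were not detected in ELA were detected in NPC, or 48.5% of them against 21.3% of all gene names not detected in ELA. On Ago it was 14 of 32, or 43.8% against 13.2%. From ES to ELA 1 of 30 genes was newly detected in total RNA (background 6.98%), and from NPC to NPC/Neu 2 of 19 (background 7.36%). On Ago it was 0 of 25 from ES to ELA (background 4.59%) and 4 of 20 from NPC to NPC/Neu (background 10.3%), and 1 of these 4 was Hoxb2, whose NPC spot was left out.

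The genes that appeared came from all 4 clusters but not from all positions. In NPC total RNA 8 of 10 Hoxb genes, 5 of 11 Hoxa genes, 4 of 9 Hoxc genes and 3 of 9 Hoxd genes were detected. By position, 11 genes of paralogue groups 1 to 4 and 9 genes of groups 5 to 9 were detected. By the probes named for them, no gene of groups 10 to 13 was detected in NPC or NPC/Neu, in total RNA or on Ago, although 3 of them were detected in ES total RNA. Undetected on all 8 arrays by these probes were Hoxa10 and Hoxa11 of the Hoxa cluster, Hoxc8, Hoxc10, Hoxc11 and Hoxc12 of the Hoxc cluster, and Hoxd9, Hoxd10, Hoxd11 and Hoxd12 of the Hoxd cluster. Hoxa11, whose probe was printed in 10 spots, had no spot well above background on any array.

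**Figure D2:**
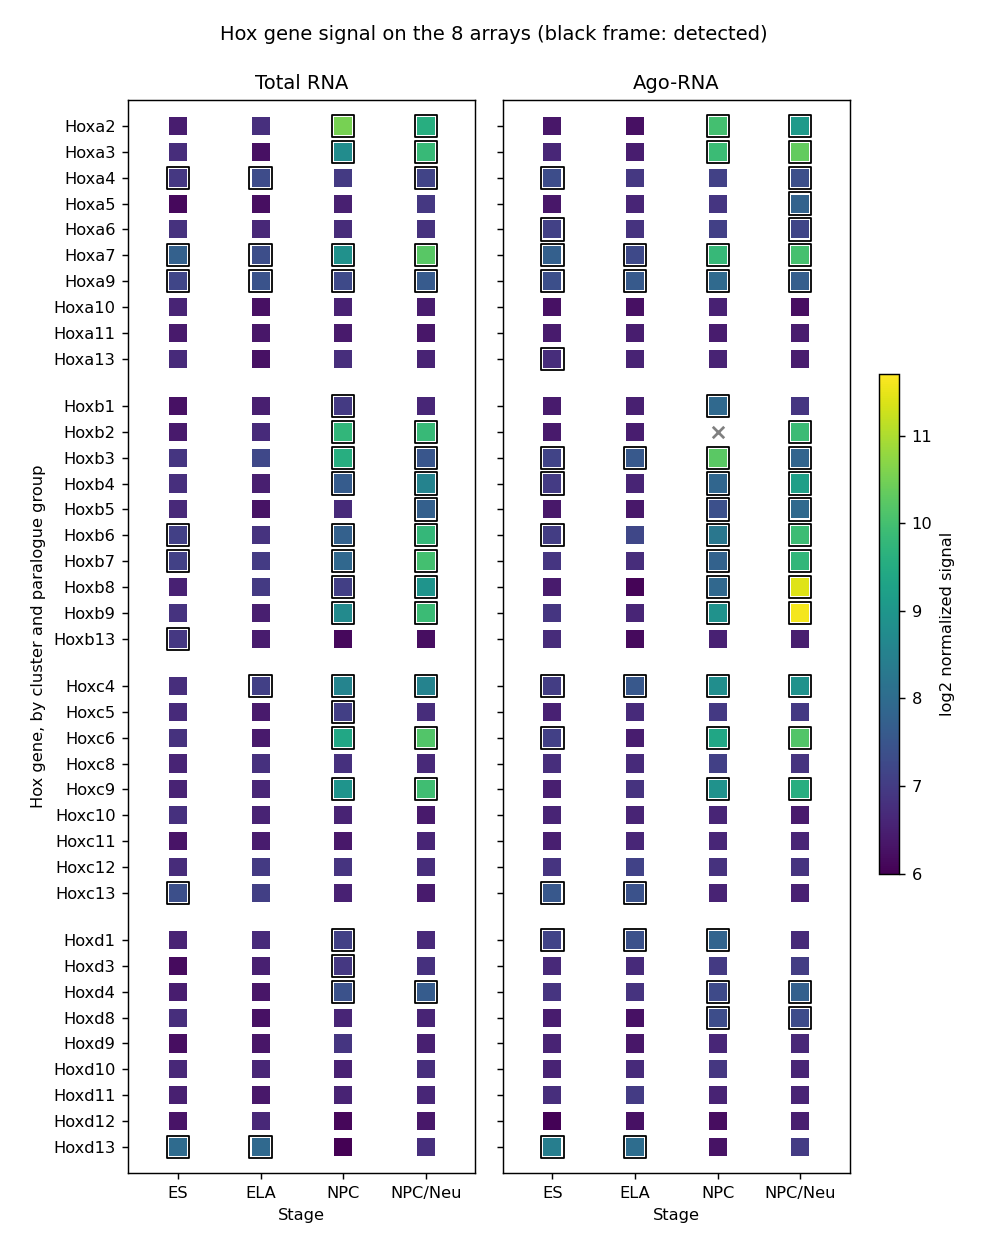
Log2 normalised signal (colour) of the Hox genes described (rows, by cluster and paralogue group) at the 4 stages (columns) in total RNA and Ago-RNA; a black frame marks detection and the cross a spot left out as an outlier. In NPC and NPC/Neu frames lie only in rows of groups 1 to 9, most densely in the Hoxb cluster, and some of these rows, such as Hoxc8 and Hoxd9, hold none. The rows of groups 10 to 13 hold frames only in ES and ELA.

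With the threshold of 2-fold, 12 of the 22 Hox genes compared rose from ELA to NPC in total RNA (background 11.5% of 24814 gene names) and 1 fell (background 10.4%). The median log2 change of the 22 was 1.09, against -0.0039 over all gene names compared. From NPC to NPC/Neu 8 of 22 rose (background 6.25%) and 2 fell (background 4.55%). From ES to ELA none of 10 rose (background 5.37%) or fell (background 5.01%). Between the ends of the course, ES and NPC/Neu, 14 of 21 rose (background 17.5%) and 1 fell (background 16.8%). The first array of most of these genes was at the limit of detection, so the folds given below as "at least" were taken against the higher of the gene's own signal and the lowest signal well above background on that array. The normalisation added an offset of 50 to every intensity, which makes folds of dim probes smaller.

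Among the 3′-most, hindbrain-type genes of groups 1 to 3, the signal was highest at day 6 for some and went on rising for others. Values are given below in the order ES, ELA, NPC, NPC/Neu. Hoxa2, which patterns the second branchial arch and the hindbrain, was not detected in ES (6.46) or ELA (6.77) and reached 10.54 in NPC and 9.57 in NPC/Neu. It was at least 12-fold higher in NPC than in ELA, the largest bound of any Hox gene at that step. Its Ago-RNA signal had the same course, with 6.34, 6.23, 9.99 and 9.08. Hoxb2, its counterpart in the Hoxb cluster, had 6.40, 6.67, 9.76 and 9.83 in total RNA and was at least 6.97-fold higher in NPC than in ELA. From NPC to NPC/Neu the log2 change of Hoxb2 was 0.07, where that of Hoxa2 was -0.97. On Ago, Hoxb2 was detected in NPC/Neu (9.88) and not in ES (6.39) or ELA (6.47), and its NPC spot was left out because the scanner software marked it as not uniform.

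Hoxa3, of hindbrain and neck, had 6.73, 6.24, 8.75 and 9.85 in total RNA. It was at least 3.45-fold higher in NPC than in ELA and rose a further 2.15-fold in NPC/Neu, while Hoxa2 was lower there than in NPC. Its Ago-RNA signals were 6.60, 6.45, 9.89 and 10.33.

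The 2 probes of Hoxb3 did not run together. The coding probe, which nearly matches Hoxd3, had 6.88, 7.23, 9.58 and 7.53 in total RNA, a rise and a fall. The other probe, which was not placed in a coding transcript of Hoxb3, had 6.18, 6.31, 6.83 and 7.45 and was detected only in NPC/Neu. Between NPC and NPC/Neu the coding probe thus went to 0.242 of its level while the other went up by a log2 difference of 0.62. The fall of Hoxb3 rests on 1 probe. With the mean over all probes of a gene, the unplaced one included, no Hox gene fell at this step. On Ago the coding probe was detected at all stages, with 7.15, 7.56, 10.24 and 7.84, and the other probe had 6.21, 6.35, 7.21 and 8.15.

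The remaining genes of these groups were near the limit. Hoxb1, a marker of the fourth rhombomere, was detected only in NPC, at 6.96 in total RNA and 7.94 on Ago. Its only probe, not placed in a coding transcript of the gene, was printed in 10 spots, with SDs over spots of 0.091 on both NPC arrays. Of the 10 spots, 6 were well above background in NPC total RNA and 10 of 10 on Ago. Hoxd1 had 7.09 in NPC total RNA, its only detection there, and 7.15, 7.42, 7.82 and 6.65 on Ago with detection at the first 3 stages. Hoxd3 was detected only in NPC total RNA, at 6.93.

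Group 4 genes, which mark the hindbrain to spinal cord transition, were detected in all 4 clusters. Hoxb4 had 6.78, 6.49, 7.64 and 8.55 in total RNA and 6.98, 6.58, 7.86 and 9.20 on Ago. Its total RNA was at least 1.60-fold higher in NPC than in ELA and then 1.88-fold higher again in NPC/Neu. Hoxc4 had 6.75, 7.07, 8.57 and 8.55 in total RNA and 7.01, 7.54, 8.80 and 8.91 on Ago, a rise of 2.82-fold from ELA to NPC with a log2 change of -0.02 thereafter. Hoxd4 was detected only in the later stages, at 7.43 and 7.65 in total RNA and 7.29 and 7.72 on Ago. Hoxa4 stayed near the limit at every stage, from 6.93 to 7.30 in total RNA and from 6.91 to 7.37 on Ago.

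The largest rises in total RNA between day 6 and day 10 were those of Hoxb6, Hoxb7, Hoxb8, Hoxa7 and Hoxb9. All belong to groups 5 to 9, of trunk and spinal cord. Other genes of these groups rose less than Hoxa3 of group 3 (log2 change 1.10) or, as Hoxc5 (-0.32), did not rise. Hoxb6 had 7.08, 6.83, 7.75 and 9.79 in total RNA and rose 4.12-fold from NPC to NPC/Neu. Hoxb7 had 7.10, 6.99, 7.91 and 10.00 and rose 4.25-fold. Hoxb8 had 6.52, 6.97, 7.06 and 8.96 and rose 3.72-fold. These 3 neighbours in the Hoxb cluster had the highest folds of all Hox genes detected on both arrays of that step.

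On Ago the same 3 genes also rose between NPC and NPC/Neu. Hoxb6 went from 8.25 to 9.90, Hoxb7 from 7.76 to 9.75, and Hoxb8 from 7.90 to 11.41. In ES and ELA the only detection among them on Ago was Hoxb6 in ES, at 7.02.

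Hoxb9, a thoracic-level gene, was newly detected at the same step as Hoxb8 and at a higher signal, with 6.84, 6.47, 8.70 and 9.89 in total RNA. It was at least 3.34-fold higher in NPC than in ELA and rose 2.29-fold thereafter. On Ago it had 6.88, 6.58, 8.88 and 11.61. Hoxb5 was detected last of the Hoxb genes in total RNA, with 6.65, 6.28 and 6.67 at the stages without detection and 7.72 in NPC/Neu. On Ago Hoxb5 was already detected in NPC (7.40) and had 7.94 in NPC/Neu.

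In the Hoxc cluster, Hoxc6 had 6.81, 6.40, 9.39 and 10.14 in total RNA and 7.09, 6.46, 9.37 and 10.15 on Ago. Its total RNA was at least 5.39-fold higher in NPC than in ELA. Hoxc9 had 6.55, 6.61, 8.94 and 9.95 in total RNA and 6.47, 6.82, 8.90 and 9.57 on Ago, at least 3.94-fold higher in NPC than in ELA and 2.02-fold higher again in NPC/Neu. Both genes were thus undetected in ELA and clearly above the limit in NPC. Hoxc5, which lies between Hoxc4 and Hoxc6, was detected only in NPC total RNA, at 7.05, and Hoxc8, between Hoxc6 and Hoxc9, on no array.

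In the Hoxa cluster, Hoxa7 was detected on all 8 arrays. Its total RNA had 7.74, 7.34, 8.86 and 10.22, rising 2.87-fold from ELA to NPC and 2.57-fold from NPC to NPC/Neu, and its Ago-RNA 7.72, 7.25, 9.81 and 10.02. Hoxa9 was also detected on all 8 arrays by 1 of its 2 probes and moved little, with 7.20 to 7.61 in total RNA and 7.36 to 7.96 on Ago. Hoxa5 and Hoxa6 were close to or below the limit: Hoxa5 was detected only on Ago in NPC/Neu (7.80), and Hoxa6 only on Ago in ES (7.11) and NPC/Neu (7.16). Hoxd8 was likewise detected only on Ago, at 7.32 in NPC and 7.31 in NPC/Neu.

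The genes of group 13 were detected only in ES or ELA, and Hoxd13 alone of them fell at least 2-fold in total RNA. Hoxd13, of digits and the genital tubercle, had 7.96 and 7.93 in ES and ELA total RNA and was not detected at 5.96 and 6.76 in NPC and NPC/Neu. It was at least 2.27-fold lower in NPC than in ELA and was the only Hox gene that fell at that step. On Ago it had 8.41, 8.02, 6.29 and 6.99, again with detection only at the first stages. Hoxc13 had 7.36 in ES total RNA and was not detected afterwards (7.06, 6.52 and 6.41). On Ago it was detected in ES (7.55) and ELA (7.44) and not later. Hoxb13 was detected only in ES total RNA, at 6.92, and Hoxa13 only in ES Ago-RNA, at 7.20 by 1 of its 2 probes.

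The changes between NPC and NPC/Neu were then set out by position. Of the 16 Hox genes detected on both total RNA arrays, 5 belonged to groups 1 to 3, with log2 changes from -2.05 to 1.10 and a median of -0.97, and 2 of these 5 were higher at day 10. The other 11, of groups 4 to 9, had changes from -0.02 to 2.09 with a median of 1.01, and 10 of the 11 were higher. Divided at group 5 instead, the 8 genes of groups 1 to 4 had a median of 0.03 with 4 higher, and the 8 of groups 5 to 9 a median of 1.28 with all 8 higher. Neither division was made without knowledge of the values. The lowest value, that of Hoxb3, rests on its coding probe, while its probe outside the coding transcripts went up by 0.62. Over the 16 genes Spearman's rho between paralogue number and change was 0.659. The genes share the same pair of arrays and are not independent, so this value is a description.

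**Figure D3:**
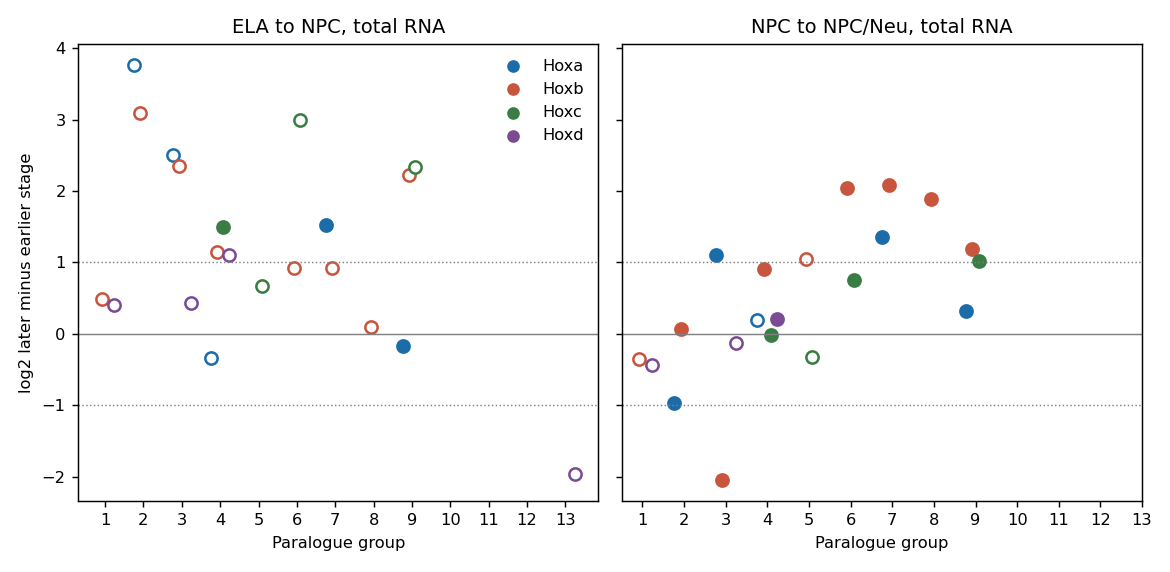
Log2 change in total RNA (vertical axis) against paralogue group (horizontal axis) for the Hox genes described that were detected on at least 1 array of the step, coloured by cluster; filled points were detected on both arrays and dotted lines mark 2-fold. From ELA to NPC the points of groups 1 to 9 lie mostly above 0 and Hoxd13 is below, and from NPC to NPC/Neu Hoxb3 is below -1 and the points near 2 are Hoxb6, Hoxb7 and Hoxb8.

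The next question was whether Hox transcripts were over- or under-represented on Ago relative to total RNA of the same stage. Enrichment is given as log2 Ago-RNA minus log2 total RNA for genes detected on both arrays. In NPC it had a median of 0.23 over 17 Hox genes, against 0.05 over 21276 gene names, and in NPC/Neu of 0.16 over 18 against 0.08 over 21107. In ES (0.17 over 7 genes) and ELA (0.11 over 4) few genes could be compared, all near the limit. With the scanner's processed signal scaled to the 75th percentile the Hox medians were below 0 at every stage, at -0.41, -0.29, -0.029 and -0.11 from ES to NPC/Neu, where those of all genes were -0.29, -0.16, -0.10 and -0.09. The sign of the Hox median therefore depends on the scaling. Both Hox medians of the later stages, as first given, lay between the quartiles of all genes, which were -0.36 and 0.41 in NPC and -0.47 and 0.60 in NPC/Neu.

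The highest Hox enrichments in NPC/Neu were those of Hoxb8 and Hoxb9. Hoxb8 had a log2 signal of 11.41 on Ago and 8.96 in total RNA, an enrichment of 2.46 or 5.49-fold, and 0.479% of all genes compared reached that value. Hoxb9 had 11.61 and 9.89, an enrichment of 1.72 or 3.29-fold, which 3.07% of genes reached. Of the 18 Hox genes 2, or 11.1%, thus had an enrichment of at least 1, which is not above the background of 13.1% of all gene names at this stage. In every processing tried the enrichment stayed between 2.44 and 2.73 for Hoxb8 and between 1.69 and 2.08 for Hoxb9.

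Both values had been lower at day 6. In NPC the enrichment of Hoxb8 was 0.83 and that of Hoxb9 was 0.18. From NPC to NPC/Neu Hoxb8 thus gained 1.89 in total RNA and 3.52 on Ago. The neighbours Hoxb6 and Hoxb7, which rose as steeply in total RNA, had enrichments of 0.11 and -0.24 in NPC/Neu. Because the Hoxb8 probe also lies in a transcript assigned to Hoxb7, its signal cannot be given to Hoxb8 alone.

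In NPC 1 of the 17 Hox genes compared, Hoxa3, reached an enrichment of 1, with 1.14, against 6.32% of gene names. Hoxb2 was not among the 17, and with its spot kept its Ago signal of 12.88 would give 3.12. Hoxb1 (0.97), Hoxa7 (0.95) and Hoxb8 (0.83) came next. For Hoxa3 and Hoxa7 the value was lower in NPC/Neu, at 0.48 and -0.20. Hoxa2 had the lowest enrichment of the Hox genes at both stages, -0.55 in NPC and -0.48 in NPC/Neu.

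**Figure D4:**
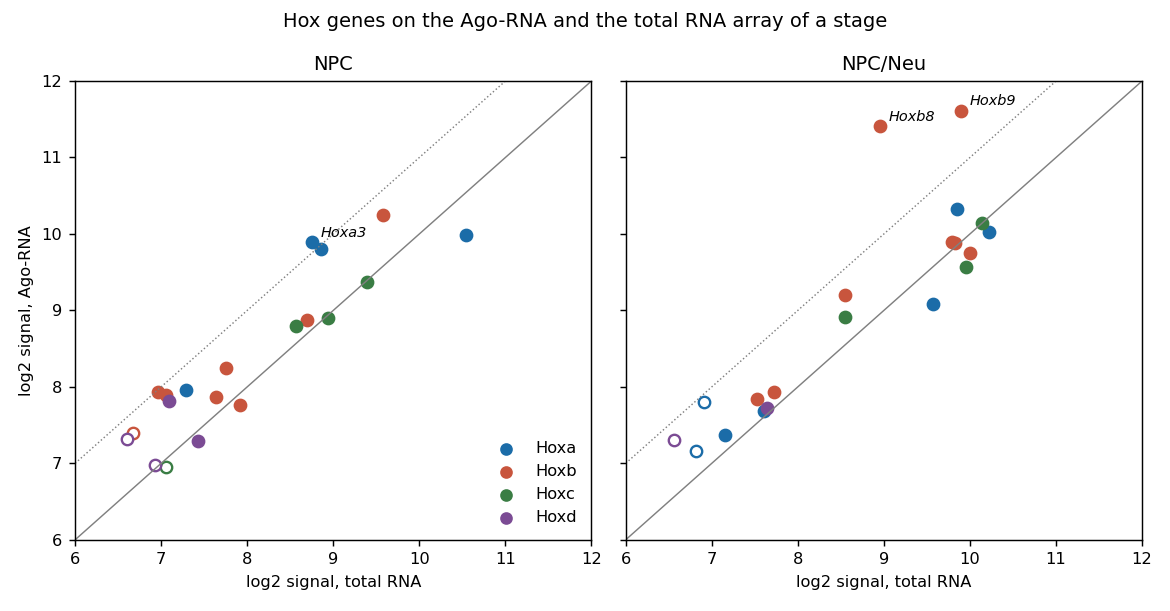
Log2 signal on the Ago-RNA array (vertical axis) against the total RNA array (horizontal axis) for the Hox genes described in NPC and NPC/Neu, coloured by cluster; open points were detected on 1 of both arrays, the solid line marks equal signal and the dotted line 2-fold more on Ago. Hoxa3 is past the dotted line in NPC, and Hoxb8 and Hoxb9 lie above it in NPC/Neu, at 2.46 and 1.72.

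The enrichment was then set beside the seed words of the cluster microRNAs. The word ACTACCT, which pairs with the seed of miR-196a-5p and miR-196b-5p, stood in the longest 3′ UTR of 9 of 39 Hox genes, or 23.1%, against 5.72% of 19915 genes. Among them were Hoxa7, Hoxa9, Hoxb1, Hoxb6 and Hoxb7, and the median 3′ UTR length was 1117 bases for Hox genes and 893 for all. The word was searched on the transcript strand only and shares letters with the word of the let-7 family. The word ACAGGGT of miR-10 stood in 2 of the 39, or 5.13% against 11.2% of all genes.

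Hox genes with the miR-196 word were not uniformly more enriched on Ago. In NPC the 6 with the word had a median enrichment of 0.59 and the 11 without it 0.23. In NPC/Neu the order was reversed, with 0.09 over the 6 with the word and 0.26 over the 12 without. Hoxb8 has no ACTACCT, since its only difference from the full complement shown above falls inside that word, and it counts among the 12 without it. The search took exact words only, so the G of Hoxb8 opposite a U of the seed was not counted as pairing. Hoxb9 has neither word.

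Within the clusters lay 40 further probes that are not named for a Hox gene, and 11 to 17 of them were detected per total RNA array. This share was below that of all non-control spots on these arrays, of which 55.1% to 60.6% were well above background. The mm9 annotation assigns the transcripts of 2 of the 40 to Hox genes. One, for Hoxa3, was detected on no array, and the other, for Hoxd11, only on NPC/Neu Ago-RNA, at 7.39. Of the 40, 5 rose at least 2-fold from ELA to NPC/Neu and were detected there, against 9.5% of all probes. One was ENSMUST00000155922, a transcript annotated as antisense to Hoxa3 (mm9 chr6:52115673-52119450, + strand), with total RNA of 5.98, 6.30, 10.16 and 8.90 and Ago-RNA of 5.92, 6.32, 10.59 and 9.40. Its probe shares 40 genomic bases with the Hoxa3 probe on the other strand. Between NPC and NPC/Neu it went down where Hoxa3 went up.

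The second was ENSMUST00000150698 (mm9 chr11:96152338-96168224, - strand), which lies antisense across Hoxb5 and Hoxb6. It had 6.41, 6.45, 10.94 and 8.31 in total RNA and 6.82, 6.71, 10.28 and 8.51 on Ago, highest in NPC, whereas Hoxb5 and Hoxb6 were highest in NPC/Neu. The others were AI448005 in the Hoxd cluster, with 7.05, 6.64, 9.55 and 9.51 in total RNA, a long intergenic RNA on the - strand between Hoxb13 and Hoxb9 (probe at mm9 chr11:96114981-96115040), with 11.77, 11.77, 12.85 and 13.73, and a second long intergenic RNA near Hoxb4 (probe at mm9 chr11:96175970-96176029, + strand), with 6.52, 6.55, 8.06 and 8.57. Of the 4 probes for the first of these intergenic RNAs, 2 were detected on no array, and the other detected probe, next to the one given, had 9.08, 9.42, 8.93 and 8.94, so its rise rests on 1 probe. All 3 probes of the second were detected in NPC and NPC/Neu total RNA, the other two at 7.32 to 7.71. Of the 5 probes for HOTAIR, a noncoding RNA of the Hoxc cluster, 1 was detected in total RNA, at 7.46 to 7.80.

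**Figure D5:**
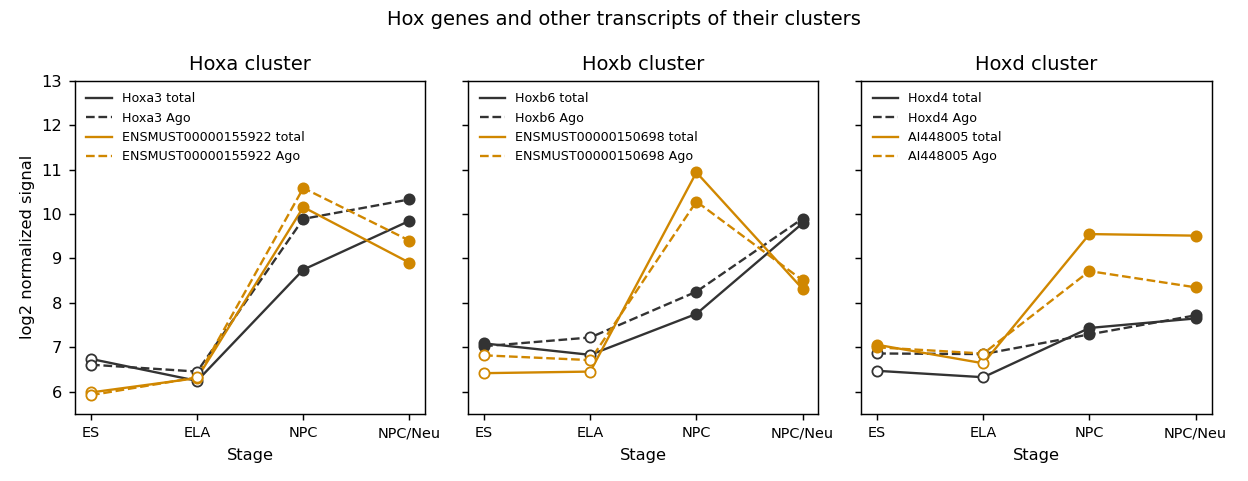
Log2 normalised signal (vertical axis) over the 4 stages of a Hox gene and another transcript of its cluster, in total RNA (solid lines) and Ago-RNA (dashed lines); filled points were detected. The antisense transcripts of the Hoxa and Hoxb clusters are highest in NPC (10.16 and 10.94 in total RNA) and lower in NPC/Neu, while Hoxa3 and Hoxb6 are highest in NPC/Neu.

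Most genes around the clusters changed by less than 2-fold. Of 17 compared genes that flank the clusters or lie within them without being Hox genes, 3 rose and none fell from ELA to NPC. The background was 11.5% for a rise and 10.4% for a fall, and the median log2 change of the 17 was -0.11. Those that rose were the homeobox gene Evx1 next to Hoxa13 (6.58 to 8.03), the DNA glycosylase Smug1 (10.20 to 11.39) and Cbx5 (12.25 to 13.25), which encodes HP1 alpha. Evx1 was already detected in ES, at 8.27, which is above its NPC signal, and it had 7.37 in NPC/Neu.

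Genes of the Hox pathway were listed by role. Hox proteins bind DNA together with TALE homeodomain cofactors, all 9 of which were detected on all 8 arrays. From ELA to NPC 4 of the 9 rose (background 11.5%) and 1 fell (background 10.4%), with a median log2 change of 0.95. Meis1 went from 8.23 to 13.69, Meis2 from 8.12 to 13.22 and Pknox2 from 8.19 to 12.76.

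Of 15 genes for signals and factors that activate Hox clusters in the embryo, 14 could be compared from ELA to NPC. Of these 6 rose (background 11.5%) and 1 fell (background 10.4%). At the step from NPC to NPC/Neu none of 14 rose (background 6.25%) and 8 fell (background 4.55%), with a median of -1.17. Cdx2, a caudal factor upstream of trunk Hox genes, had 7.04, 6.63, 9.29 and 6.88, so that it was detected in NPC and no longer in NPC/Neu, where Hoxb6 to Hoxb9 were highest. Cyp26a1, which degrades retinoic acid, had 7.55, 6.81, 9.38 and 6.69. The retinoic acid receptor gene Rarg was the gene that fell at the earlier step, from 14.08 to 10.24, and Rarb went from an undetected 6.78 to 7.99.

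Among 20 Polycomb and trithorax genes, which hold Hox clusters silent or active, 2 rose and 4 fell from ELA to NPC, with a median of -0.22. The background was 11.5% for a rise and 10.4% for a fall, so the share that rose was not above it. The Polycomb gene Bmi1 rose from 10.54 to 12.97 and Kdm6b, a demethylase of the Polycomb mark, from 11.50 to 13.19. Cbx7, a Polycomb reader of stem cells, had 9.23 and 8.50 in ES and ELA and was not detected later (6.58 and 6.56). Phc1 (13.64 to 10.59), Ezh1 (13.91 to 12.34) and Jarid2 (13.79 to 12.33) also fell from ELA to NPC.

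The stage labels were checked against marker lists in total RNA. All 8 pluripotency genes were lower in NPC/Neu than in ES by at least 2-fold (background 16.8%), and 8 of 9 neural genes were higher (background 17.5%). From NPC to NPC/Neu, however, 3 of the 8 pluripotency genes rose (background 6.25%) and none fell, with a median log2 change of 0.61. They were Esrrb (9.59 to 11.55), Fgf4 (7.64 to 9.20) and Zfp42 (8.71 to 9.76). Forebrain and midbrain genes, which mark cells that normally lack Hox expression, rose alongside the Hox genes. From ES to NPC/Neu 8 of 12 compared rose (background 17.5%), among them Emx2 (6.57 to 11.26) and Lhx2 (7.47 to 14.46), and 1 fell (background 16.8%). Their summed linear signal over the 4 stages was 50160, 71980, 83090 and 113800, and En1 and Six6 were detected on no total RNA array. Otx2, at 15.53 in ES and 15.97 in NPC/Neu, made up 96.5% of the ES sum together with En2. Together with Lhx2 it made up 96.3%, 82.6% and 76.4% of the sums in ELA, NPC and NPC/Neu.

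Mesoderm and axial progenitor genes, in which trunk Hox genes are also used, moved less clearly. Over the stages in order, 7, 5, 8 and 7 of the 12 were detected, against 65.6%, 60.6%, 65.5% and 64.3% of all gene names. Their summed linear signals were 26030, 16160, 32260 and 20110. A pair of genes made up 84% to 94.3% of each sum, Kdr with Tcf15 in ES and ELA and Kdr with Pax3 later. Brachyury (T) went from 7.19 in ELA to 9.73 in NPC and Pax3, also a gene of the dorsal neural tube, from 8.09 to 14.08, while Mesp1 and Mixl1 were detected at no stage in total RNA. On NPC Ago-RNA 11 of the 12 were detected (background 60.6%), Mesp1 at 7.80 and Mixl1 at 8.33 included. Of 7 endoderm genes 3 to 5 were detected per stage, with sums of 920 to 6791, and of 5 neural crest genes 3 to 5, with sums of 3546 to 7183. The background of detection was 60.6% to 65.6% of all gene names. A pair of genes made up 41.6% to 91.2% of each endoderm sum, the highest share being that of Foxa1 with Foxa2 in NPC/Neu. For neural crest the share was 73% to 94.6%, with Foxd3 leading in ES and ELA and Sox9 later. The part that cells of these kinds had in the Hox signals was not tested.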

How the data were processed

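Gene expression was measured on 8 one-colour Agilent arrays (SurePrint G3 Mouse, 62976 spots), 1 per stage and RNA fraction. The deposited files hold the scanner software's spot intensity (linear mean, background and processed intensity) with detection and outlier marks, as the authors' scanner wrote them; per the submitters' processing notes Agilent Feature Extraction 9.1 was used, while the file headers name another release. Mean intensity was background corrected (normexp, offset 50, on mean and background signal), outlier spots were left out, log2 values were quantile normalised over the 8 arrays (limma 3.58.1, R 4.3.3) and spots of a probe averaged. A gene was represented by its probe with the highest mean log2 value and detected if any probe was well above background. The rule was to name every Hox gene detected on at least 1 array (some items are not reported here); other genes come from lists by role or lie inside the clusters. Members and lists were chosen with earlier results of these data known. Precision is limited by 1 array per condition, and intensity gives no read depth. Probe positions refer to mm9. Alternatives were other detection rules, offset, scaling, probe averaging and outlier handling; functions were tested on simulated data.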

Additional observations from a re-analysis of the deposited data

Results flagged for a closer look

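The Hoxb2 spot on the NPC Ago-RNA array was left out because the scanner software marked it as not uniform. It entered none of the counts above, and with the spot kept its log2 signal was 12.88, against 9.88 for Hoxb2 on Ago in NPC/Neu and 6.47 in ELA.

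From NPC to NPC/Neu Hoxa9 changed in opposite directions in the fractions, by 0.32 on the log2 scale in total RNA and by -0.28 on Ago. The difference was not tested, each direction rests on 1 pair of arrays, and Hoxa9 was near the limit of detection throughout.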

How the results depend on the processing

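Detection in ES and ELA depended on the rule. With the weaker flag of the scanner software, 25 Hox genes were detected in ES and 16 in ELA total RNA, and 26 and 19 on Ago. With a log2 signal above 7.82, 1 and 2 remained in total RNA, 1 and 1 on Ago, and 11 in NPC total RNA. With the scanner's processed signal scaled to the 75th percentile, 2 Hox genes rose and 1 fell from ES to ELA, 2 fell from ELA to NPC, 5 from NPC to NPC/Neu and 3 from ES to NPC/Neu. That scaling moved the median Ago enrichment of all genes from 0.03 to -0.29 in ES and from 0.08 to -0.09 in NPC/Neu, and the Hox medians to -0.41, -0.29, -0.029 and -0.11 over the 4 stages in order. Among genes detected on both arrays, 3 rose and 0 fell from ELA to NPC and 3 rose and 0 fell from ES to NPC/Neu, since most had no detected first value. From ES to NPC/Neu 3 fell with offset 16 and 2 with scaling within each fraction. With the mean over probes 0 fell from NPC to NPC/Neu. No Hox gene called risen or fallen in total RNA, or enriched on Ago, changed sign in any setting tried. Changes of the other named genes and changes in Ago-RNA were not run under these settings. Keeping outlier spots left every count within 1.5 times. That alternative was planned for the counts of risen and fallen genes and added after seeing the data for detection and Ago enrichment. No paired analysis was possible because each condition had 1 array.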
